A study of Homo sapiens with 3 samples.

Results

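The deep loci described here are stretches of RNA with C-to-U edits called at high read coverage in all 3 replicates. The cells expressed an RBFOX2-APOBEC1 fusion protein. The deposited clusters of enriched editing were merged across replicates wherever same-strand clusters shared 1 base or more, and a merged locus was kept if every replicate had a cluster in it and a mean read depth of at least 50 there. This left 834 deep loci, which are 52.6% of the 1586 loci found in all 3 replicates and 2.51% (Wilson 95% interval 2.35 to 2.68) of the 33244 merged loci. The loci were thus chosen by their presence in every replicate and by their depth, and both are given as a description that supports nothing.

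The 3 replicates are HEK293T cells, a human embryonic kidney line sold as HEK293XT, with a WT genotype. All of them expressed the fusion under doxycycline for 72 h before RNA was sequenced, which the labels give as polyA RNA but prepared with a kit for stranded mRNA or total RNA. The labels and the study name a transient transfection, although the growth protocol speaks of stable lines. There is 1 condition, and samples without the fusion were not analysed here, so the background of editing in cells that lack it is not measured by these values. The study calls them biological replicates, but nothing in the labels says that they came from separate cultures. The p-values between them set a difference against counting error only and do not measure the spread between samples.

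STAMP reads out the binding of an RNA-binding protein from edits. APOBEC1 is a cytidine deaminase that turns C into U in RNA, and fused to an RNA-binding protein it leaves edits near the places where that protein sits. RBFOX2 is a splicing regulator that binds GCAUG in introns and also in the 3′ untranslated regions of mRNAs. A C-to-T mismatch in sequencing reads can also come from a genomic difference, a misplaced read or a sequencing error, and the files hold no genome of these cells.

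The choice by depth and by presence in every replicate favours loci with many reads, so the shares that follow are a description. The deep loci held 926, 929 and 924 of the 14295, 15181 and 11367 clusters of replicates 1, 2 and 3, which is 6.48%, 6.12% and 8.13%. They held 44.2%, 45.6% and 46.8% of all edited reads in clusters, 38.6%, 39.8% and 39.7% of all edited bases, and 52.6%, 52.0% and 53.5% of all covered C bases. Replicate 3 had the fewest clusters and the lowest depth, with a median depth at deep loci of 119 reads against 167 and 154 in replicates 1 and 2. Edited reads per locus had a median of 10, 10 and 8.

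Nearly all deep loci were exonic. The deposited annotation places 818 of 834 (98.1%) in exons, beside 97.7% of all merged loci, 14 in introns and 2 partly in both. Their median length was 105 bases, with a range of 20 to 570. The longest lay in YWHAE, which encodes a 14-3-3 adaptor protein (hg19 chr17:1247852-1248421, edit fraction 0.518%, 0.502% and 0.606%), and in HSP90AA1, a cytosolic chaperone (hg19 chr14:102547556-102548080, 0.849%, 0.863% and 0.902%). Here the edit fraction divides edited C bases by covered C bases, each summed over the clusters of a locus in a replicate. The next 2 in length lay in ATP6V1E1, a subunit of the vacuolar proton pump, and STMN1, which destabilises microtubules.

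The edit fraction of a deep locus was usually below 1%. Its median was 0.691%, 0.748% and 0.778% in replicates 1, 2 and 3, or 0.739% ± 0.0440 (SD, n = 3). By the mean of the 3 replicates, 129 loci (15.5%) lay below 0.5%, 477 (57.2%) between 0.5% and 1%, 190 (22.8%) between 1% and 2%, 29 between 2% and 5% and 9 at 5% or more. The lowest mean, 0.230%, was at a locus in RPS4X, a protein of the small ribosomal subunit (hg19 chrX:71495485-71495529), which had 0.204%, 0.247% and 0.241%. The share of reads with at least 1 edit had a median of 3.17%, 3.30% and 3.48%. In 583 of the 834 loci the edited bases outnumbered the edited reads in every replicate, and the median was 1.50, 1.54 and 1.50 edited bases per edited read.

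**Figure D1:**
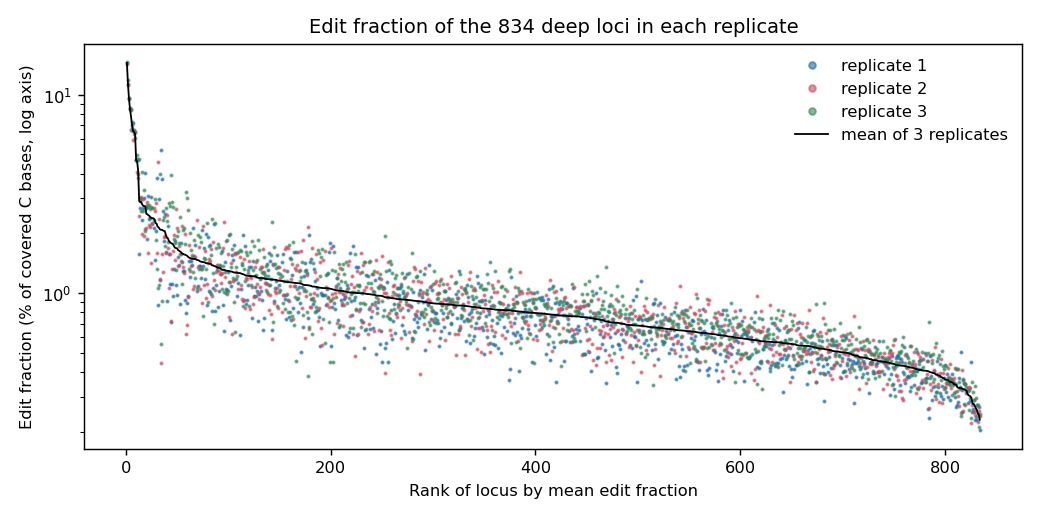
Edit fraction (percent of covered C bases, log axis) of the 834 deep loci ordered by their mean over 3 replicates, with a point per replicate and a line for the mean. Most loci lie between 0.5% and 2%, and 9 loci reach a mean of 5% or more.

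At 7 loci at least 50% of the reads were edited in every replicate, and these stood apart from the rest: the lowest of them had a mean of 57.4% and the highest other locus 40.7%. They lay under the names SNRPGP10, RP11-864N7.2, RP11-51O6.1, AC007969.5, MT-ND2, MT-ND5 and NKRF. Together they held 22.7%, 19.9% and 21.6% of the edited reads of all deep loci. Each of the 7 was a window of 45 bases with the same boundaries in all replicates. Edits by the fusion, genomic differences and misplaced reads cannot be told apart at these loci, and the origin of their mismatches was not tested. SNRPGP10 is a pseudogene name, NKRF encodes a repressor of NF-kappa-B targets, and the MT genes encode subunits of respiratory complex I in mitochondria.

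The locus under RP11-864N7.2 (hg19 chr11:74456762-74456806) had the highest edit fraction, at 14.5%, 14.3% and 14.5%. Of its 484, 321 and 312 reads, 483, 321 and 312 were edited. The locus under RP11-51O6.1 (hg19 chr16:61089349-61089393) followed with 11.2%, 11.3% and 11.8%, and 99.6%, 99.4% and 100% of its reads were edited. The replicates lay close together at both loci, and no pair of them passed the test of edited reads described below.

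Mitochondrial transcripts gave 4 deep loci in 3 genes. In MT-ND2 the edit fraction was 4.69%, 4.68% and 4.69%, from 4587, 4197 and 3233 edited reads, the most at any deep locus. One locus of MT-ND5 had 9.50%, 9.60% and 9.66%. A second locus of MT-ND5, with which it shares a stretch of 135 bases, had 1.06%, 0.998% and 0.818%, and the locus of MT-CYB, a subunit of respiratory complex III, had 1.09%, 1.06% and 0.958%. Of these 4 loci, the one in MT-ND2 and the first in MT-ND5 were thus well above the others in every replicate. At the higher MT-ND5 locus the files count fewer edited bases than edited reads, 0.670, 0.629 and 0.457 bases per read.

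The product of edit fraction and C bases of a locus gives the number of fully converted C bases that would yield the same count. Its median was 0.0984, 0.0993 and 0.101. It was 1.01, 1.00 and 1.02 under RP11-864N7.2, 0.950, 0.960 and 0.966 at the higher MT-ND5 locus, 0.938, 0.936 and 0.939 in MT-ND2 and 0.983, 0.953 and 1.01 in NKRF. It was above 1 at other loci, with 1.91, 1.83 and 1.89 at the intronic locus of RBFOX2, 1.53, 1.55 and 1.43 at a locus of PCBP2, a poly(C)-binding protein, and 1.24, 1.23 and 1.15 under AC007969.5. It reached 0.9 in every replicate at 9 loci and 0.5 on average at 32. The product grows with the number of C bases, and these 32 had a median length of 270 bases, with 22 over 100 bases. Their mean share of edited reads ran from 0.857% to 99.9%, so a high product does not mean that most reads were edited. Which base was converted is not given in the files, so these values cannot show whether the edits fell on a single position.

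Outside these 7, high edit fractions came with lower shares of edited reads. The locus under RP11-364L4.1 (hg19 chr4:144271149-144271193) had 6.60%, 8.42% and 8.34%, with 28.9%, 42.3% and 41.1% of reads edited. PDIA6, a protein disulfide isomerase of the endoplasmic reticulum (hg19 chr2:10924073-10924222), had 7.18%, 5.90% and 6.58%, with 43.9%, 34.2% and 44.0% of reads edited. HSPE1, the small mitochondrial chaperonin (hg19 chr2:198365109-198365153), had 4.73%, 4.09% and 4.96%, with 17.1%, 20.4% and 22.7% of reads edited and 40.4, 51.2 and 51.3 reads per C base. LAPTM4A, a lysosomal membrane protein (hg19 chr2:20232472-20232696), had 2.69%, 2.91% and 3.02%, and a locus of SNHG6, the host gene of the small nucleolar RNA SNORD87, had 2.98%, 3.06% and 2.59%. The replicates differed by less than 1.5-fold in edit fraction at each of these 5 loci.

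**Figure D2:**
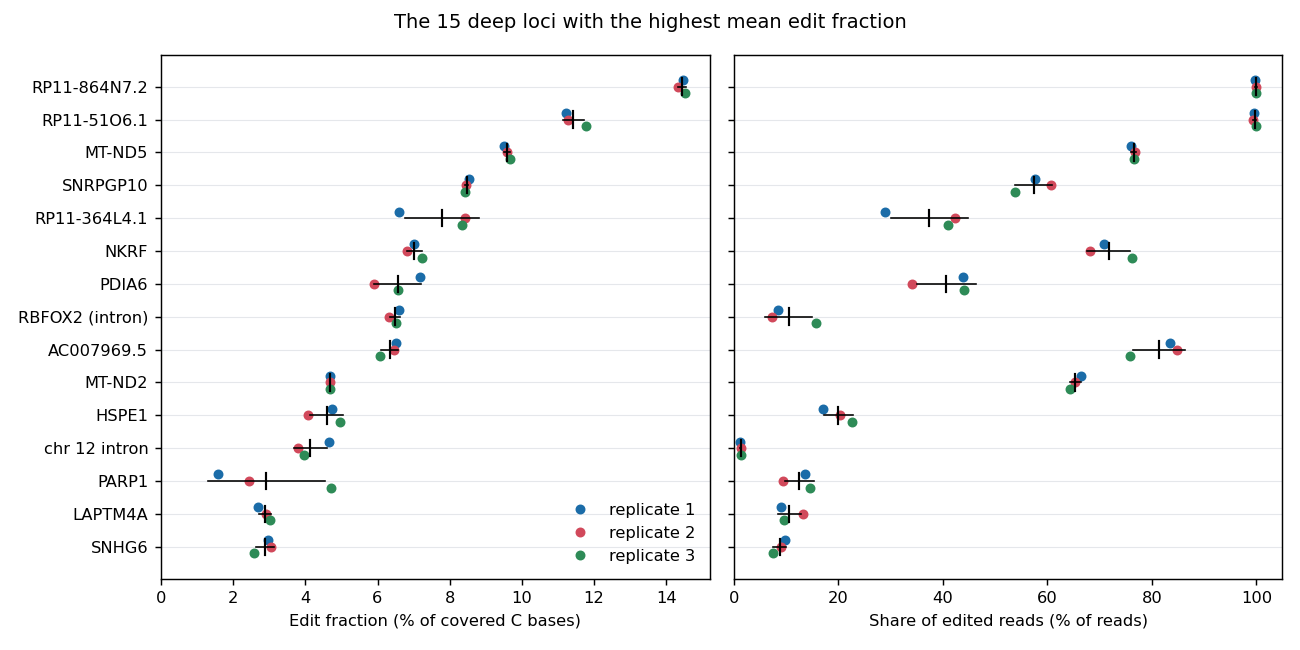
Edit fraction (left, percent of covered C bases) and share of edited reads (right, percent of reads) at the 15 deep loci with the highest mean edit fraction, with a point per replicate, a vertical tick for the mean and a horizontal bar for ± 1 SD (n = 3). RP11-864N7.2 and RP11-51O6.1 have nearly all reads edited, and the replicates of PARP1 are spread from 1.58% to 4.72% in edit fraction.

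RBFOX2 itself had 13 deep loci, more than any other name, of which 12 were exonic. The cells' own RBFOX2 RNA and the RNA of the fusion cannot be told apart in these counts. The exonic loci had mean edit fractions from 0.259% to 1.49% with a median of 0.467%, lower than the 0.778% over all deep loci. This comparison was not matched for depth. Median depth at the 12 was 3616, 5915 and 2286 in replicates 1, 2 and 3, against 167, 154 and 119 over all deep loci. Replicate 2 was deepest at all 12 of them. They were the source of 3362, 6197 and 2703 edited reads. The exonic locus with the most edited reads (hg19 chr22:36177648-36177793) had an edit fraction of 1.02%, 1.36% and 1.19% and a share of edited reads of 9.24%, 11.2% and 9.66%. The intronic locus, which also bears the pseudogene name NDUFA9P1 (hg19 chr22:36234512-36234646), had the highest value of the 13, at 6.60%, 6.32% and 6.52%. Its mean depth over the replicates was 1195, but its C bases were covered by 103 reads on average.

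The deep loci carried 665 gene names. Of these, 468 names had 1 deep locus, 142 had 2, 37 had 3 and 14 had 4, and RBFOX2, ARF1, PSAP and YWHAZ had 5 or more. By RefSeq biotype, 794 of the 834 loci (95.2%) bore the name of a protein-coding gene, 14 that of a long noncoding RNA and 10 that of a pseudogene, and for 16 loci no name had a match. Among 197 names with at least 2 deep loci, the highest mean edit fraction was a median of 1.58 times the lowest, and it was over 3 times the lowest at 21 names. Some names share their loci, so these are 176 sets of loci with a median of 1.54, of which 15 are over 3-fold. At a single deep locus the highest of the 3 replicate values was a median of 1.53 times the lowest. The spread between loci of a name was not tested against that between replicates. The loci of a name were close together, within a median of 919 bases.

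ARF1, a small GTPase of Golgi vesicle budding, had 5 loci within 1155 bases (hg19 chr1:228285734-228286888), and their mean edit fractions ran only from 0.415% to 0.565%. PSAP, the precursor of lysosomal activator proteins, had 5 within 1095 bases (hg19 chr10:73576071-73577165) that ran from 0.511% to 1.31%. YWHAZ, a 14-3-3 protein, had 5 from 0.442% to 0.814%. By contrast, PFN1, an actin-binding profilin, had a locus of 30 bases at 4.04%, 2.10% and 2.06% and another at 0.433%, 0.336% and 0.332%, and ARF4, a relative of ARF1, ran from 0.475% to 2.51% over 3 loci.

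Cytosolic ribosomal proteins had 35 deep loci in 20 genes, 4.20% of the deep loci and 0.716% of all merged loci. The depth limit favours abundant transcripts, and no test was made of this difference. Their median edit fraction was 0.457%, with 35 loci between 0.230% and 2.38%. The highest was RPS23, a protein of the small subunit (hg19 chr5:81573644-81573688), at 2.24%, 2.24% and 2.67% from 90, 91 and 101 edited reads. Next was RPL7L1, a large-subunit protein relative, at 1.08%, 1.33% and 0.962% from 2, 5 and 3 edited reads. Translation initiation and elongation factors had 27 loci in 15 genes with a median of 0.821%. EIF4A2, an RNA helicase of cap-dependent initiation whose introns host small nucleolar RNAs, led them at 3.00%, 1.94% and 3.30%.

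The hnRNP and SR proteins, which bind pre-mRNA and shape splicing, had 36 loci in 20 genes with a median of 0.870%, and other splicing regulators and spliceosome proteins had 38 in 17 genes with a median of 0.705%. Of the latter, 13 were the RBFOX2 loci. EWSR1, an RNA-binding protein of the FET family (hg19 chr22:29669833-29669853), had 2.37%, 2.20% and 2.77%, with 15.9%, 14.6% and 18.2% of reads edited. The leading hnRNP locus was in HNRNPC, an hnRNP that binds uridine-rich RNA, at 2.33%, 1.98% and 4.08%, but it rested on 1, 2 and 1 edited reads. RNA helicases had 9 loci in 6 genes with a median of 0.695%, led by DDX3X and DDX17.

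Other gene groups had medians on both sides of the 0.778% of all deep loci. Glycolytic enzymes had 7 loci with a median of 0.413%, led by PGAM1 (0.827%, 0.728% and 1.65%) and PGK1 (0.551%, 0.638% and 1.29%). Nuclear-encoded proteins of the respiratory chain had 27 with a median of 0.622%, and vesicle coat, RAB and sorting proteins 28 with a median of 0.651%. The 14-3-3 proteins had 11 with a median of 0.686%, of which YWHAQ held the highest. Chaperones had 25 with a median of 0.763%, and tubulins, actins and actin-binding proteins 21 with a median of 0.771%. Histones had 11 with a median of 0.865%, led by H2AFZ, the replication-independent variant H2A.Z. DNA replication and repair genes had 12 with a median of 0.946%, led by PARP1, which synthesises poly(ADP-ribose) at DNA breaks, and XRCC5, the larger Ku subunit. Proteasome genes had 4 with a median of 1.11%, chromatin modifiers and remodelers 5 with 0.875%, nucleolar and ribosome assembly genes 6 with 0.783%, ubiquitin pathway genes 10 with 0.684%, solute carriers 6 with 0.595% and lipid synthesis enzymes 3 with 0.768%. Long noncoding RNAs with approved names had 8 with 0.856%, and loci that also bear the name of a small noncoding RNA numbered 24 with 0.856%. Zinc finger genes had 3 deep loci of their 661 merged loci, and mitosis and kinesin genes 3 of 263.

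Replicates ordered the deep loci alike to a moderate degree. Spearman's rho of the edit fraction over the 834 loci was 0.647, 0.648 and 0.644 for replicates 1 and 2, 1 and 3, and 2 and 3. These are descriptions across loci that share libraries and genes, and carry no p-value. The edit fractions of a pair lay within 1.5-fold of each other at 593, 573 and 586 loci and over 2-fold apart at 80, 85 and 77. Of the 50 loci with the highest values in each replicate, 25 were common to all 3. Replicate 3 gave the highest of the 3 values at 366 loci (43.9%), replicate 2 at 267 (32.0%) and replicate 1 at 201 (24.1%). The median ratio of replicate 3 to replicate 1 was 1.15. Depth was lowest in replicate 3, and the part of depth in this order was not tested.

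**Figure D3:**
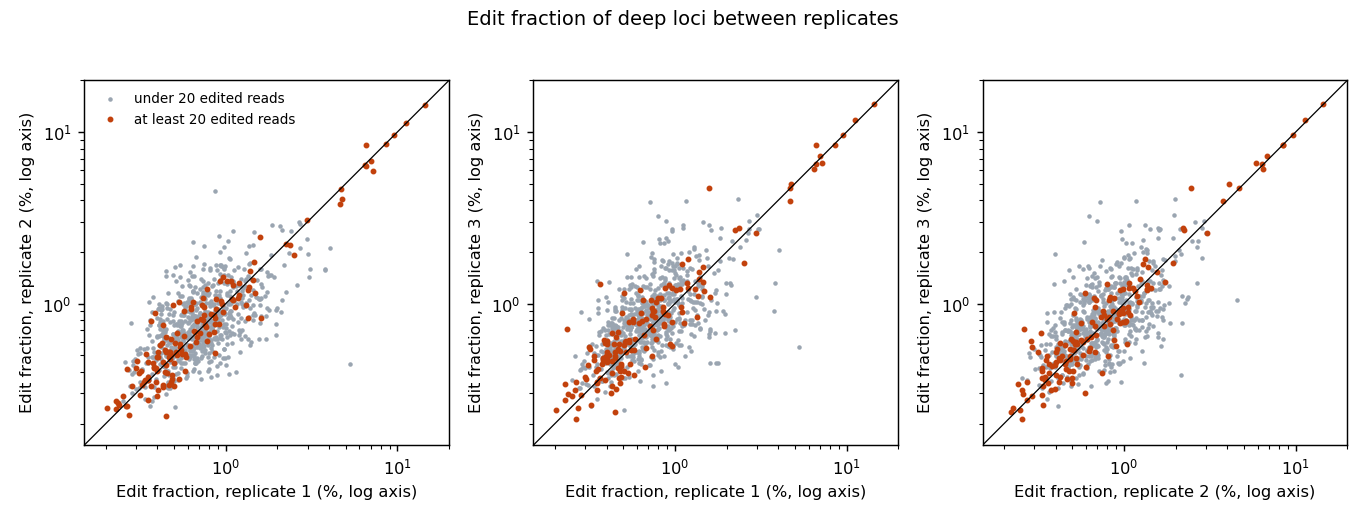
Edit fraction (percent of covered C bases, log axes) of the 834 deep loci in each pair of replicates, with the line of equal values. The 150 loci with at least 20 edited reads in every replicate lie nearer the line, with a Spearman's rho of 0.896, 0.859 and 0.894, than the 684 loci with fewer.

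Replicates lay closer together where more reads were edited. At the 150 loci with at least 20 edited reads in every replicate rho was 0.896, 0.859 and 0.894, and at the 684 others 0.553, 0.561 and 0.548. Over all deep loci the median coefficient of variation (CV) of the edit fraction was 22.1%, and the median of the expected counting error was 27.8%. In 3 replicates, counting error alone gives a median CV of 0.833 times the expected error. The median of the CV over its counting error was 0.843 over all deep loci, close to that value. By the edited reads in the replicate that had fewest, the median CV fell from 27.4% at 311 loci with 1 to 4 to 23.5% at 5 to 9. It was 20.5% at 10 to 19, 16.8% at 20 to 49 and 10.9% at 69 loci with 50 or more. The median of the CV over its counting error was 0.700 in the first of these classes and 1.44 in the last, beside 0.833 for counting error alone in 3 replicates. It was 0.843, 0.995 and 1.25 in the classes between. Counting error was taken from edited bases as if each were independent. Edited bases of the same read are not, so the error is understated where reads carry several edits. Ratios above 0.833 therefore cannot be read as spread beyond counting error. Clusters had to be called in every replicate and often differed in their boundaries, so these ratios are a description. The reads carry no molecular identifiers and can be copies of 1 molecule, so all counting errors and intervals here cover counting only.

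**Figure D4:**
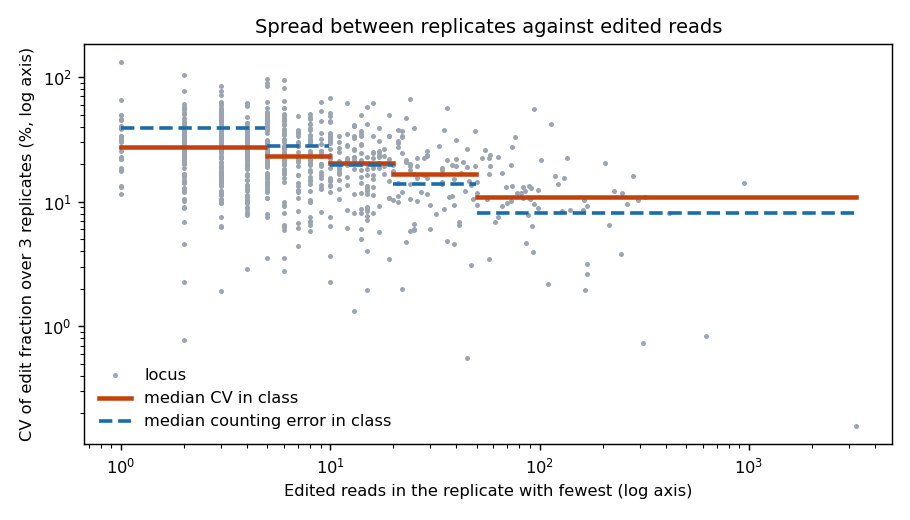
CV of the edit fraction over 3 replicates (percent, log axis) at each deep locus against its edited reads in the replicate with fewest (log axis). Solid bars give the median CV of each class. Dashed bars give the median expected counting error, with edited bases taken as independent. The solid bars fall from 27.4% to 10.9% and pass above the dashed ones from 10 edited reads on. Counting error alone gives a median CV of 0.833 times the expected error in 3 replicates, so this crossing marks no threshold.

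Among loci with at least 20 edited reads in every replicate, the smallest CV was at MT-ND2 (0.159%), followed by SNRPGP10 (0.555%), RP11-864N7.2 (0.738%) and MT-ND5 (0.833%). UBB, which encodes polyubiquitin, came next with an edit fraction of 0.664%, 0.682% and 0.657%. LDHA, the glycolytic lactate dehydrogenase subunit, had 0.354%, 0.360% and 0.346%. MT-ND2, SNRPGP10, RP11-864N7.2 and MT-ND5 are among the 7 loci with at least 50% of reads edited in every replicate. Their product of edit fraction and C bases was close to 1, between 0.927 and 1.02 in every replicate. The CV of SNRPGP10 lay far below its expected counting error of 14.1%. Whether such a product limits the spread between replicates was not tested. The largest CVs were at HSP90AB1, a chaperone, with 0.236%, 0.263% and 0.713%, ACTB, cytoplasmic actin, with 0.367%, 0.794% and 1.30%, and PARP1 with 1.58%, 2.45% and 4.72%.

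Cluster boundaries differed at these last 3 loci, and their part in the spread was not tested. At the PARP1 locus (hg19 chr1:226548813-226548962) the clusters covered 120, 105 and 45 bases in replicates 1, 2 and 3, while the share of edited reads was 13.6%, 9.41% and 14.7%. At the HSP90AB1 locus they covered 105, 105 and 45 bases, and at the ACTB locus 120, 90 and 75. In each of these genes the replicate with the shortest cluster had the highest edit fraction, and the share of edited reads followed another order than the edit fraction in all of them, with 2.79%, 3.18% and 1.80% in HSP90AB1 and 3.01%, 2.77% and 3.45% in ACTB. Without replicate 3 the mean edit fraction of the HSP90AB1 locus was 0.250% in place of 0.404%. Over all deep loci, 94 (11.3%, Wilson 95% interval 9.30 to 13.6) had the same boundaries in all 3 replicates. Their median length was 45 bases against 120 at the others. A locus spans all its clusters, so differing boundaries lengthen it and this difference is partly built in. The rho between replicates at the 94 was 0.885, 0.893 and 0.912.

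Whether the share of edited reads differed between replicates was tested with two-sided Fisher's exact tests of edited against unedited reads in each pair, adjusted by the Benjamini-Hochberg method over 4758 tests at all 1586 loci found in 3 replicates. These tests compare libraries, not conditions. At an adjusted p under 0.05 in any pair, 9 of the 834 deep loci (1.08%) were called, beside 0.631% of all loci tested. At an adjusted p under 0.01, 6 were, beside 0.441% of all loci. By pair, 4 deep loci were called between replicates 1 and 2, 4 between 1 and 3 and 4 between 2 and 3, beside 0.252%, 0.315% and 0.252% of all loci. At an unadjusted p under 0.05 in any pair, 132 were called (15.8%), beside 11.5% of all loci tested. RBFOX2 held 4 of the 9. The others were in PFN1, NPM1, MDK, SOD1 and RP11-423H2.1, and none of these 5 had the same boundaries in all replicates. Calls depend on the number of edited reads. Of 311 deep loci with 1 to 4 edited reads in the replicate with fewest, 0 were called, and of 69 with 50 or more, 6. Under the depth limit 1 of 752 was called. The shares of deep and of all loci called are thus a description, and a locus without a call cannot be taken as equal between replicates.

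The intronic RBFOX2 locus had a higher share of edited reads in replicate 3 (15.7%) than in replicates 1 (8.46%) and 2 (7.39%), with an adjusted p from Fisher's exact test of 2.69e-04 and 1.11e-06, while its edit fraction stayed between 6.32% and 6.60%. Its boundaries were the same in all 3. It had 1301, 1677 and 874 reads in replicates 1, 2 and 3, but its C bases were covered by 91.5, 104 and 113 on average. Reads that cover no C base cannot show an edit, and their part in this difference was not tested. The test on C bases described below called no pair of replicates at this locus. The exonic RBFOX2 locus with the most edited reads was higher in replicate 2 than in replicate 1 (11.2% against 9.24%, adjusted p 9.25e-06, Fisher's exact test). In MDK, which encodes the growth factor midkine (hg19 chr11:46405125-46405214), 11, 8 and 42 reads were edited, a share of 1.97%, 1.18% and 4.94%. The clusters covered 30, 30 and 90 bases there, and the adjusted p of replicates 2 and 3 was 0.0149 (Fisher's exact test). In NPM1, the nucleolar protein nucleophosmin, the share was 2.09%, 0.479% and 1.00%, where the clusters covered 120, 60 and 90 bases. In SOD1, the cytosolic superoxide dismutase, it was 5.19%, 3.59% and 1.36% over 285, 150 and 75 bases. PFN1 had 2.82%, 4.60% and 5.27% over 75, 150 and 105 bases. The locus under RP11-423H2.1 had 12.9%, 18.6% and 10.4% over 240, 255 and 195 bases. The stretches compared at these loci thus differed, and the part of this in the calls was not tested.

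With edited C bases over covered C bases in place of reads, the same test called 38 deep loci (4.56%), beside 3.59% of all loci tested. Only 3 loci were called by both measures, all in RBFOX2. PARP1 was called by bases, with an adjusted p of 4.27e-14 between replicates 1 and 3 (Fisher's exact test), and not by reads. Edited bases of the same read are not independent, so the test on bases counts a read with several edits several times.

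Depth of a locus and coverage of its C bases were mostly equal, with a median ratio of 1.00, 1.00 and 1.01. At 793 of the 834 loci the coverage per C base was at least 50 in every replicate, at 41 it was under 50 in at least 1 and at 15 in all 3. The 41 had a median edit fraction of 1.41% against 0.764% at the 793. A call needs edited bases, and with few covered C bases these make a higher fraction, so this difference is a description. In GNB2L1, which encodes the ribosome-bound scaffold RACK1 (hg19 chr5:180666180-180666239), the depth was 3687, 3305 and 2570 but the coverage per C base 15.9, 30.6 and 21.9, and its edit fraction of 2.24%, 1.17% and 0.702% rested on 3, 4 and 2 edited reads. HNRNPC (hg19 chr14:21731826-21731870), PCBP2 and 2 loci of ATPIF1, an inhibitor of the mitochondrial ATP synthase, likewise had a depth of at least 10 times the coverage per C base in every replicate. The largest CV of all deep loci, 132%, was at a locus of CFL1, which severs actin filaments (hg19 chr11:65622282-65622356). It had 5.26% from 1 edited read in replicate 1, where the coverage per C base was under 50, and 0.442% and 0.557% in the other replicates.

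**Figure D5:**
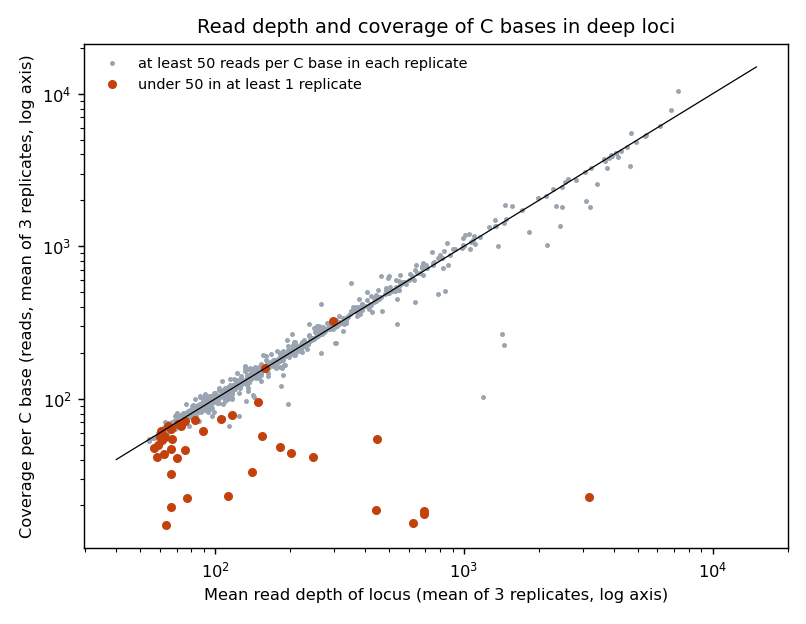
Coverage per C base (reads) against mean read depth (reads) of the 834 deep loci, both as means of 3 replicates on log axes, with the line of equal values. Most loci lie on the line, and the 41 loci with under 50 reads per C base in at least 1 replicate include GNB2L1 far to the right below it.

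The 16 loci that the annotation places wholly or partly in introns often bore several names, among them processed pseudogenes that lie in introns of other genes. A pair of them were neighbours on chromosome 12 under clone-based names. One (hg19 chr12:93477131-93477175) was among the deepest of all, with an edit fraction of 0.448%, 0.221% and 0.235%, and the other (hg19 chr12:93477251-93477340) had 4.66%, 3.79% and 3.97% with 1.35% of its reads edited on average. The intronic locus of SFPQ, a paraspeckle protein, had 2.60%, 1.28% and 2.34% from 1, 2 and 2 edited reads at 14.8 reads per C base on average.

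At the depth limit itself, the loci just inside and just outside are given as a description. Just inside lay GLRX5, a mitochondrial iron-sulfur protein, with a lowest depth of 50.3 and an edit fraction of 2.09%, 0.897% and 1.32%, and HNRNPDL with 1.03%, 0.490% and 1.06%. Just outside lay POM121, a nuclear pore protein, with a lowest depth of 49.97 and 0.395%, 0.606% and 1.76%, and VBP1, a prefoldin subunit, with 0.654%, 0.779% and 0.824%. The 1145 loci found in 2 replicates and deep in both had a median edit fraction of 0.763%, and the 5144 found in 1 replicate and deep there 0.795%. Both were close to the 0.778% of the 834. The median edited reads of these sets were 4 and 3 against 10, and their median lengths 60 and 45 bases against 105. A merged locus spans the clusters of every replicate it was found in, so this difference in length is partly built in. Within a replicate the clusters of a locus covered a median of 47 and 45 bases in these sets, against 75 at the 834. The 752 loci found in 3 replicates under the depth limit had a median of 1.77%. The study's caller requires a stronger signal in windows of low read depth, so this median is not comparable with those at higher depth.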

How the data were processed

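C-to-U edits were measured in HEK293T cells that expressed an RBFOX2-APOBEC1 fusion, in 3 replicates. The submitters' processing notes name STAR and hg19. The authors called C-to-U edits with SAILOR and clusters with FLARE, in windows of 30 bases, at an adjusted p-value of 0.1 and a merging distance of 15 bases, per replicate. Reads, edited reads, edited bases and covered C bases are deposited as unscaled counts. The deposited fractions (edit fraction, fraction of edited reads) were recomputed from the counts. Mean depth is a coverage signal as the authors gave it, and the deposited score lies between 0 and 1. Only clusters that passed the authors' threshold were analysed, so their reads are not library depth, and windows without a call are unknown.

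Locus depth was the mean of cluster depths weighted by length. Start positions were taken as counted from 0 and printed plus 1. Python 3.11.15, NumPy 2.4.6, pandas 2.3.3, SciPy 1.17.1, statsmodels 0.14.6 and matplotlib 3.10.9 were used, and the code was tested on simulated data. Of the 665 names, 620 (93.2%) matched a RefSeq table of GRCh38.p14, from which biotypes but no positions were taken. Named were the loci highest in edit fraction, edited reads, CV, depth or length, those called or at the depth limit, intronic loci, genes with at least 5 loci, and the leading 2 of each gene list. Members and lists were chosen with earlier results of these data known. Pseudogenes were removed from lists after values were seen, and a list of pseudogene-type names was not used because it took in coding genes. Alternatives were other depth limits, overlaps, scores, measures and each replicate left out. Sequences of the loci were not analysed here.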

Additional observations from a re-analysis of the deposited data

How the results depend on the processing

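The number of deep loci was 834 with depth weighted by length, and it stayed within 1.5-fold where every cluster or the deepest cluster had to reach the limit. Calls at low read depth need a stronger signal, so the median edit fractions at other depth limits are a description. At a minimum depth of 30 the median edit fraction was 0.843% and the median CV 23.4%. At 100 there were 463 loci in 381 names, with a median edit fraction of 0.602%, a CV of 19.5%, the same boundaries at 15.3% and 17 loci with at least 0.5 converted C bases. Requiring 50% of both clusters to overlap left 515 loci in 443 names, a CV of 20.6%, 4 loci called between replicates and the same boundaries at 18.3%. A score of at least 0.99 left 500 loci in 438 names, a median edit fraction of 0.814%, a CV of 20.8% and the same boundaries at 14.2%. The share of edited reads in place of the edit fraction gave a median of 3.32% and a CV of 26.3%, and a mean over loci gave 0.950%. The CV was 15.4% at loci with the same boundaries, of which 2 were called, and 16.7% with at least 10 edited reads in each replicate. The test on bases called 38 loci, and without the loci in RBFOX2, chosen after seeing the data, 5 were called by reads. Leaving out each replicate in turn gave 1133 to 1488 loci in 851 to 1055 names, most without replicate 3, a median edit fraction of 0.738% to 0.754%, a CV of 17.0% to 19.1%, 3 to 4 called loci, the same boundaries at 18.4% to 21.0% and 36 to 40 loci with at least 0.5 converted C bases. With a replicate left out, a locus needed clusters in only 2 replicates, and only 2 sets of boundaries had to match. Only 1 pair was tested, and the CV came from 2 values. The counts, boundaries and CVs of these runs are thus not comparable with those of 3 replicates. The cause of the other shifts was not tested. With counts pooled over replicates, the edit fractions of 37 named loci moved by less than their SD between replicates. Leaving out 1 of 3 values can hardly move a mean beyond that SD and so says nothing about their stability. No paired analysis was possible because there is only 1 group. At the 311 loci with 1 to 4 edited reads in the replicate with fewest, 1 read changes the value.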
